A study of Danio rerio with 21 samples.

Results

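Ventricles collected 90 days post-injury (dpi) were compared directly with ventricles collected at 14 dpi, using 6 of the 21 arrays of a time course of heart regeneration in the zebrafish. Each group held 3 pools of 5 ventricles. The fish were adults of the TU strain, 10 to 11 months old, and the labels record no transgene, mutation or drug. All fish of both groups had received a cryoinjury, in which part of the ventricle is frozen and killed, and 3 pools from uninjured fish are set beside them. The labels do not report a sham operation, and the age is given for the experiment as a whole, so the 76 days between the groups and 76 days of further age cannot be told apart. The pools of the 2 groups came from different fish.

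The zebrafish repairs a frozen ventricle by stages. The epicardium, which is the outer layer of the heart, and fibroblasts first lay down a provisional, collagen-rich scar, leukocytes clear the dead tissue, and surviving cardiomyocytes divide and grow back into the wound while the scar is taken apart. The comparison therefore sets a heart in which scar and new muscle are found together against one late in repair.

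RNA was measured on a whole-transcript array. Values are log2 signals, on which a difference of 1 is a 2-fold change, and a feature is the set of probes for 1 transcript region. The array holds 75212 features. A feature was tested if any of the 21 arrays gave it a log2 signal over 6, which left 35783, and 12313 of these carried a single gene symbol, for 11687 genes. Genes of heart muscle were high in all 6 pools. The atrial and ventricular myosin light chain gene *myl7* read 11.84, 11.92 and 11.77 at 14 dpi and 11.97, 11.87 and 11.90 at 90 dpi, against array medians of 5.14 to 5.2 over the 21 arrays. Pools correlated at 0.968 to 0.972 within 14 dpi, at 0.952 to 0.965 within 90 dpi, and at 0.930 to 0.955 between the groups. The median SD of a feature between pools was 0.186 at 14 dpi and 0.225 at 90 dpi.

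More features fell than rose between 14 and 90 dpi. At an adjusted p under 0.05 (limma, 1 fit of the 7 groups, Benjamini-Hochberg over the 35783 features), 2516 features were lower at 90 dpi (7.03%) and 1536 were higher (4.29%), so that 62.1% of the 4052 called features were lower. With quantile normalization 51.5% were lower. A change over 1.6-fold was called for 2229 features (6.23%), 1560 of them lower and 669 higher. Counted by gene, 1078 were lower (9.22%) and 741 were higher (6.34%). These shares are the background against which each group of genes is read. The median difference over all genes was -0.01. Pools without overlap were common. Of the 35783 features, 5637 had all 90 dpi pools below all 14 dpi pools, and 4346 had them all above. A lack of overlap, given below for single genes, is therefore not by itself evidence of a change.

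The counts depended on single pools. Leaving out 14 dpi replicate 1 left 1071 features lower and 503 higher, and leaving out 90 dpi replicate 2 left 1067 and 414. Without 90 dpi replicate 3, 1558 were lower. When only the 6 arrays were fitted, with 4 residual degrees of freedom in place of 14, 11 features were lower and 0 higher, although 7653 had an unadjusted p under 0.05 (limma). Of 205 genes that are named by rule or for their values and passed the test, 89 passed with any 1 of the 6 pools left out (72 lower and 17 higher). The text leans on these and says where another gene lost its call. Calls against uninjured ventricles were not checked by leaving out pools. In the values below, ± is the standard error of that fit. Where the lower group mean is below the array median, near the background of the array, a change is a lower limit. This also holds for *mmp11b*, *mmp13b*, *loxa*, *ccn2b*, *stx11a*, *nr4a2a*, *leap2*, *spink2.4* and *thfp5*.

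**Figure D1:**
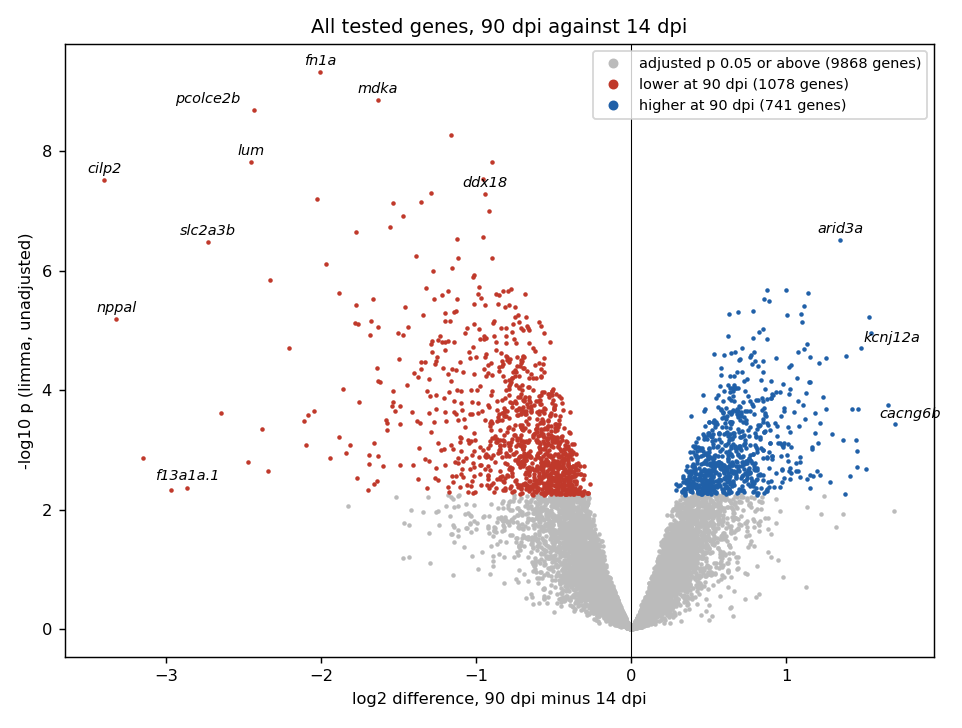
Each point is 1 of the 11687 tested genes. The x axis is the log2 difference, 90 dpi minus 14 dpi, and the y axis is -log10 of the unadjusted limma p. The 1078 genes that fell (red) reach differences beyond -3, whereas none of the 741 that rose (blue) reached 2.

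Of the named genes without overlap of the pools, *cilp2* fell the most. It encodes a matrix protein best known from cartilage. It read 6.99, 8.72 and 7.29 in the 14 dpi pools and 4.38, 4.28 and 4.14 in the 90 dpi pools. The groups were far apart, and *cilp2* fell by 3.40 ± 0.36 (limma, adjusted p = 7.2e-05). The 90 dpi pools lay among the uninjured pools, at 4.33, 4.22 and 4.77. The mean of 4.27 at 90 dpi is below the array median, so the fall is a lower limit. *fn1a* encodes fibronectin, an adhesive glycoprotein of the provisional matrix. It read 8.95, 9.35 and 9.0 at 14 dpi and 6.74, 7.38 and 7.14 at 90 dpi. All 14 dpi pools lay above all 90 dpi pools, and *fn1a* fell by 2.01 ± 0.16 (adjusted p = 2.8e-06). Its group means were 11.70 at 3 dpi and 10.09 at 7 dpi, so the 14 dpi level of 9.10 was already below its highest level. At 90 dpi it was still above uninjured ventricles by 0.48 ± 0.16 (adjusted p = 0.0476). The pools overlapped there, with 90 dpi replicate 1 at 6.74 and uninjured replicate 3 at 6.82.

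*pcolce2b* encodes an enhancer of the enzyme that trims procollagen. It read 9.47, 9.36 and 8.97 at 14 dpi and 6.87, 6.77 and 6.87 at 90 dpi, against 7.85, 8.48 and 8.55 in uninjured ventricles. The 90 dpi pools lay below both other groups. The fall was 2.43 ± 0.22 (limma, adjusted p = 8.2e-06), and 90 dpi differed from uninjured ventricles by -1.46 ± 0.22 (adjusted p = 5.5e-04). The small leucine-rich proteoglycan gene *lum* read 6.08, 7.41 and 6.57 at 14 dpi and 4.22, 4.57 and 3.91 at 90 dpi. It fell by 2.45 ± 0.25 (adjusted p = 4.5e-05), to a level below the array median. Its level at 90 dpi differed from that of uninjured ventricles by 0.35 ± 0.25 (adjusted p = 0.339).

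The pools of 90 dpi differed among themselves for several of the largest falls. *nppal*, a natriuretic peptide gene of the stressed heart, read 8.79, 8.40 and 9.83 at 14 dpi and 5.05, 4.82 and 7.17 at 90 dpi. Replicate 3 stood above the other 90 dpi pools, yet below all 14 dpi pools, and *nppal* fell by 3.33 ± 0.52 (limma, adjusted p = 0.0014). *il11a* encodes interleukin 11, a cytokine that acts through gp130, and is named here for its values. It read 10.03, 8.30 and 9.86 at 14 dpi and 5.63, 4.72 and 8.40 at 90 dpi. Here 90 dpi replicate 3 overlapped the 14 dpi pools. The fall of 3.15 ± 0.83 passed the test (adjusted p = 0.0225) but was lost without 14 dpi replicates 1 or 3 or 90 dpi replicates 1 or 2, with an adjusted p of up to 0.116. *f13a1a.1* encodes an A subunit of factor XIII, the enzyme that crosslinks fibrin. It read 10.78, 10.84 and 11.41 at 14 dpi and 5.50, 9.04 and 9.88 at 90 dpi, with replicate 1 apart from the others. It fell by 2.87 ± 0.87 (adjusted p = 0.0424), a call that was lost without any 1 pool but 90 dpi replicate 3, at an adjusted p of up to 0.15. It remained above uninjured ventricles, where it read 4.03, 3.97 and 4.15, by 4.09 ± 0.87 (adjusted p = 0.00472). Its neighbour in name *f13a1a.2* fell by 2.35 ± 0.66 (adjusted p = 0.0302), lost without any 1 pool but the same replicate. Whether probes of these copies measure each other's transcript was not tested.

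The other largest falls were of genes of mixed roles. The glucose transporter gene *slc2a3b* read 8.35, 6.65 and 6.79 at 14 dpi and 4.23, 4.42 and 4.94 at 90 dpi, without overlap, and fell by 2.73 ± 0.34 (limma, adjusted p = 3.4e-04). The 90 dpi level was below the array median, which makes this a lower limit. The lysyl oxidase gene *loxl2a*, whose product crosslinks collagen, had 2 tested features, which fell by 2.73 ± 0.55 and 2.33 ± 0.33 (adjusted p = 0.00634 and 7.4e-04). *sptlc2b*, a subunit of the enzyme that starts sphingolipid synthesis, fell by 2.21 ± 0.38 (adjusted p = 0.00235). The potassium channel subunit gene *kcne4* and the transcription factor gene *atf3* fell by 2.65 ± 0.57 and 2.11 ± 0.47 (adjusted p = 0.00914 and 0.0108), and both calls were lost without 90 dpi replicate 2 (adjusted p = 0.0539 and 0.0623). *nr4a3*, *pnp5a*, *chst1* and *thfp5* fell by 2.47, 2.39, 2.1 and 2.97, and were lost without 2 or more of the pools in turn, at an adjusted p of up to 0.0991, 0.0717, 0.091 and 0.197. For *thfp5* the 14 dpi pools themselves ranged from 5.53 to 10.26, and a second tested feature of this gene fell by 0.78 ± 0.45 (limma, adjusted p = 0.286).

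**Figure D2:**
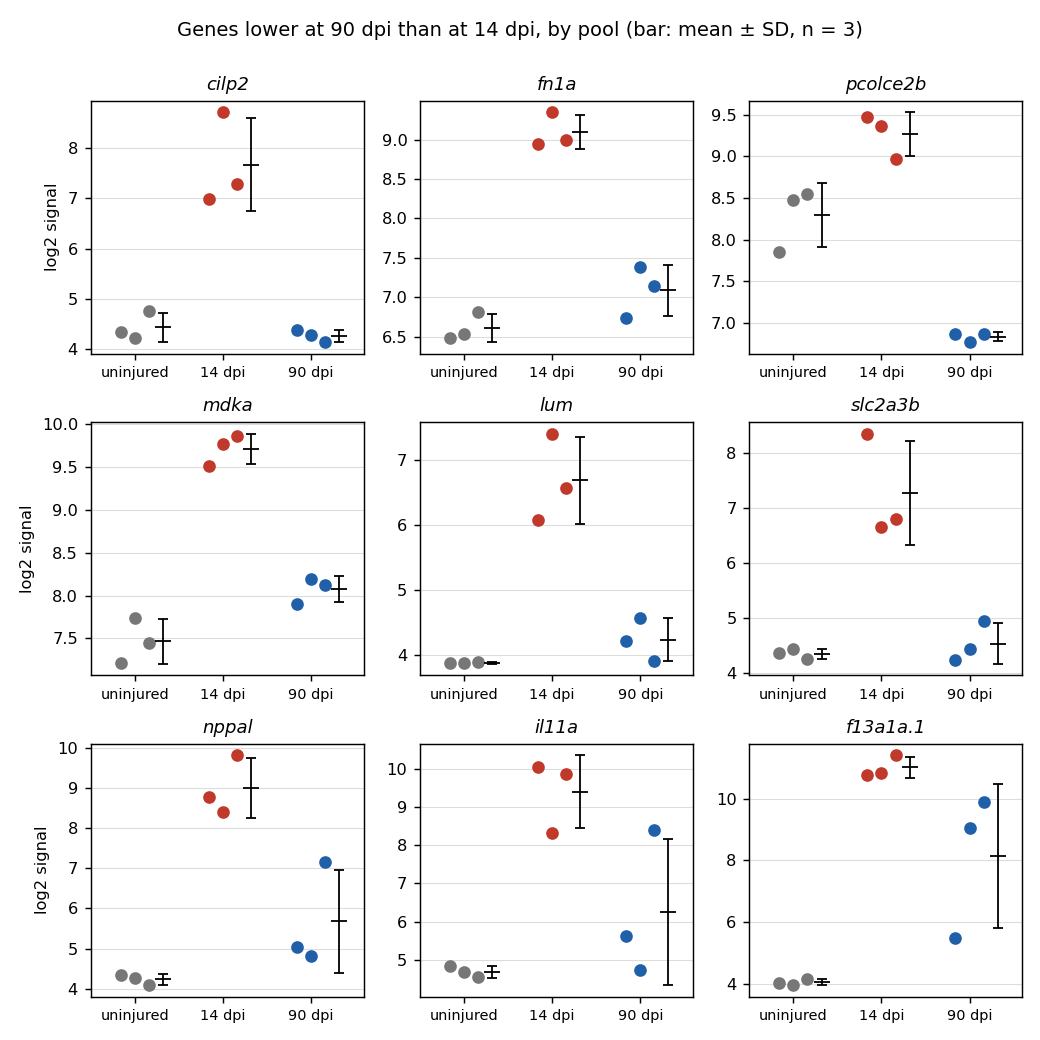
Log2 signal (y axis) of 9 genes in each pool of uninjured, 14 dpi and 90 dpi ventricles, with the mean ± SD (n = 3) at the right of each group. For 8 of the 9 genes no 90 dpi pool reaches a 14 dpi pool, and *il11a* overlaps through 90 dpi replicate 3 at 8.40. Most of the genes shown were named by a rule that required no overlap, so their separation follows from the choice.

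Fibrillar collagen genes fell together. Fibrillar collagens are the rope-like proteins that give a scar its strength. Of 13 such genes on the array 6 passed the signal filter, and all 6 were lower at 90 dpi, by a median of 0.87, against 9.22% of all genes and a median of -0.01. In bulk tissue, fewer cells of a type and less RNA per cell cannot be told apart. *col1a1a*, a chain of type I collagen, read 9.24, 9.64 and 9.11 at 14 dpi and 7.63, 8.73 and 8.40 at 90 dpi, without overlap, and fell by 1.08 ± 0.24 (limma, adjusted p = 0.0105). *col5a1*, which is needed to start type I fibrils, read 7.19, 7.30 and 6.86, then 5.88, 6.37 and 6.38, and fell by 0.91 ± 0.16 (adjusted p = 0.00325). *col5a2a* fell by 0.75 ± 0.16 and *col11a1b*, measured below the array median at both times, by 1.01 ± 0.14 (adjusted p = 0.00774 and 6.9e-04). *col1a2* and *col1a1b* fell by 0.83 ± 0.22 and 0.77 ± 0.22 (adjusted p = 0.022 and 0.0292). Without 14 dpi replicate 2 or without 90 dpi replicate 1 those 2 calls were lost and 4 of 6 remained, and *col1a1b* was also lost without 14 dpi replicate 1. All 6 genes were higher at 14 dpi than in uninjured ventricles, where 12.7% of all genes were higher and 6.22% lower. None of the 6 passed the test at 90 dpi against uninjured ventricles, where 13.5% of all genes were higher and 8.8% lower. *col1a1a*, for example, differed there by 0.20 ± 0.24 (adjusted p = 0.597).

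Genes that process and crosslink collagen followed. Of 22 tested, 13 were lower and 0 higher (59.1% and 0%, against 9.22% and 6.34% of all genes), with a median of -0.56. Leaving out 14 dpi replicate 1 left 7 lower, and leaving out 90 dpi replicate 1 left 8. *plod2*, a hydroxylase of collagen lysines, read 10.08, 9.96 and 9.82 at 14 dpi and 8.94, 9.02 and 9.05 at 90 dpi. Pools of each group lay close together, and the fall was 0.95 ± 0.16 (limma, adjusted p = 0.00196). The oxidase genes *loxl2b* and *loxa* fell by 1.46 ± 0.22 and 1.3 ± 0.26 (adjusted p = 0.00109 and 0.00661), and *fkbp10b*, a collagen chaperone, by 0.87 ± 0.15 (adjusted p = 0.00202). Of 9 other collagens 2 were lower and 0 higher (22.2% and 0%, median -0.46). *col12a1a*, which binds to the surface of fibrils, fell by 1.04 ± 0.21 (adjusted p = 0.00592) and stayed above uninjured ventricles by 0.64 ± 0.21 (adjusted p = 0.0386). Its 90 dpi replicate 3, at 7.78, lay below uninjured replicate 3, at 7.90. *col6a1* fell by 0.71 ± 0.22 (adjusted p = 0.0441), a call that held only without 90 dpi replicate 2.

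Of 37 matrix glycoprotein and proteoglycan genes 14 were lower and 0 higher (37.8% and 0%, against 9.22% and 6.34% of all genes). The median was -0.33, and 9 were lower without 14 dpi replicate 2 or without 90 dpi replicate 2. *postnb* encodes periostin, a product of activated fibroblasts. It read 6.94, 7.96 and 7.22 at 14 dpi and 5.37, 5.90 and 5.55 at 90 dpi, and fell by 1.77 ± 0.28 (limma, adjusted p = 0.00146). Thrombospondin gene *thbs1a* fell by the same 1.77 ± 0.27 (adjusted p = 0.00107). It read 8.84, 8.58 and 8.62, then 7.39, 6.72 and 6.61. The 90 dpi level was below that of uninjured ventricles by a difference of -0.83 ± 0.27 (adjusted p = 0.0375), with overlap through uninjured replicate 1 at 7.26. *sparc*, a collagen-binding glycoprotein, fell by 0.71 ± 0.11 and *mfap2*, a microfibril protein, by 1.18 ± 0.20 (adjusted p = 0.00152 and 0.00202). Among 16 matrix proteases and their inhibitors 4 were lower and 1 higher (25% and 6.25%), with a median of -0.56. The share of higher genes is near the 6.34% of all genes. *timp2b*, an inhibitor of metalloproteinases, read 9.11, 8.65 and 9.55, then 7.71, 7.81 and 7.81, and fell by 1.33 ± 0.19 (adjusted p = 8.5e-04). The collagenase gene *mmp13b* and the membrane-bound *mmp14a* fell by 1.54 ± 0.33 and 0.73 ± 0.16 (adjusted p = 0.00821 and 0.00877). *mmp11b* was the gene that rose, by 1.07 ± 0.30 (adjusted p = 0.0298), from 4.35, 4.54 and 4.81 to 5.54, 6.03 and 5.35, and this call was lost without 14 dpi replicates 1 or 2 or 90 dpi replicate 2, at an adjusted p of up to 0.132.

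Markers of the cells that make matrix fell in the same comparison. The epicardial list had 7 of 18 genes lower and 0 higher (38.9% and 0%, against 9.22% and 6.34% of all genes, median -0.48). Its mean, relative to uninjured ventricles, was 0.56 to 0.78 in the 14 dpi pools and -0.07 to 0.05 in the 90 dpi pools. The list shares *fn1a* and *postnb* with the matrix lists. *wt1b* encodes a transcription factor of activated epicardium. It read 8.37, 8.42 and 8.56 at 14 dpi and 7.30, 7.09 and 6.79 at 90 dpi, and fell by 1.39 ± 0.18 (limma, adjusted p = 5.4e-04). *mdka* encodes midkine, a secreted growth factor. It read 9.51, 9.76 and 9.86, then 7.90, 8.20 and 8.13. The fall was 1.63 ± 0.14 (adjusted p = 6.2e-06), and the 90 dpi level was above uninjured ventricles by 0.61 ± 0.14 (adjusted p = 0.00732). *tcf21*, a marker of epicardium and its derived cells that does not need activation, read 8.40, 8.84 and 8.96, then 8.72, 8.86 and 8.30. These values overlapped, and the difference was -0.11 ± 0.21 (adjusted p = 0.792). The retinoic acid enzyme gene *aldh1a2*, named for its values, fell by 0.66 ± 0.20 (adjusted p = 0.0415) with overlapping pools, and lost its call without 14 dpi replicates 1 or 3 or 90 dpi replicates 2 or 3 (adjusted p of up to 0.206).

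Of 23 mural, smooth muscle and fibroblast genes 8 were lower and 0 higher (34.8% and 0%, against 9.22% and 6.34% of all genes, median -0.44). But 2 were lower without 90 dpi replicate 2, 3 without 14 dpi replicate 2 or 90 dpi replicate 3, and 5 without 14 dpi replicate 3 or 90 dpi replicate 1. This list also holds genes of matrix proteins, so it is not separate from the fall of matrix genes. Among its called members were *elnb* and *fbln5*, which lost their calls without 5 and 3 of the pools in turn. The mean of the list was 0.21 to 0.86 at 14 dpi and -0.01 to 0.05 at 90 dpi, relative to uninjured ventricles. *cnn1b*, a calponin of smooth muscle, read 11.50, 11.55 and 11.49, then 10.98, 10.58 and 10.21. It fell by 0.92 ± 0.19 (limma, adjusted p = 0.00815) and remained 0.78 ± 0.19 above uninjured ventricles (adjusted p = 0.0112). *acta2*, smooth muscle actin, read 9.42, 10.76 and 9.53, then 8.86, 8.87 and 8.69. It fell by 1.09 ± 0.30 (adjusted p = 0.0287), with 14 dpi replicate 2 well above the rest, and the call was lost without that pool or 90 dpi replicates 2 or 3 (adjusted p of up to 0.114). The pericyte receptor gene *pdgfrb* differed by -0.16 ± 0.12 (adjusted p = 0.426). The part of these cells in the fall of the matrix genes was not tested.

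**Figure D3:**
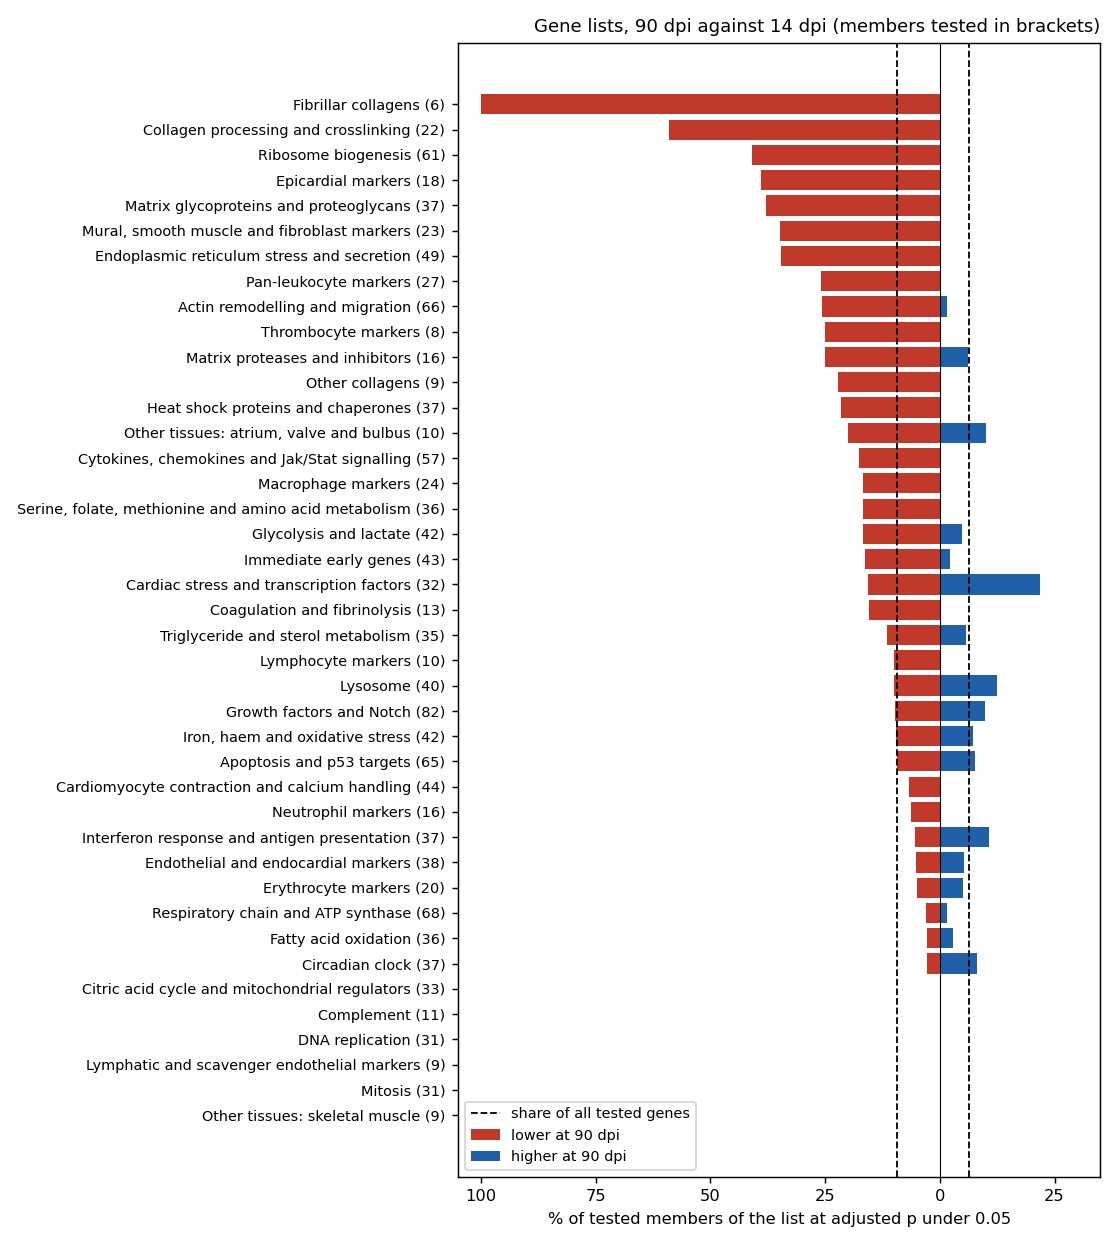
Bars give the share of each list's tested genes (number in brackets) that were lower (left, red) or higher (right, blue) at 90 dpi than at 14 dpi, at an adjusted p under 0.05. Dashed lines mark the shares over all genes, 9.22% and 6.34%. Fibrillar collagens lie at 100% lower, collagen processing at 13 of 22 and ribosome biogenesis at 25 of 61.

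Leukocyte genes fell in part and stayed above uninjured ventricles. Of 27 pan-leukocyte genes 7 were lower and 0 higher (25.9% and 0%, against 9.22% and 6.34% of all genes, median -0.44). In this list 1 was lower without 14 dpi replicate 3, 2 without 14 dpi replicate 1 or 90 dpi replicate 2, and 3 without 90 dpi replicates 1 or 3. Among the called genes, *stx11a* kept its call without any 1 pool, and *csf2rb* lost it without 2 of the pools in turn. The calls of *cotl1*, *ncf1*, *coro1a* and *samsn1a* were lost without 4 or more. The defining gene *lcp1* read 8.18, 8.11 and 8.61, then 7.32, 7.71 and 7.71, and did not pass the test. Of 24 macrophage genes 4 were lower and 0 higher (16.7% and 0%, median -0.34), with 1 lower without 14 dpi replicate 3 and 2 without 14 dpi replicate 1 or 90 dpi replicates 2 or 3. Relative to uninjured ventricles, the macrophage mean was 1.06 to 1.32 at 14 dpi and 0.79 to 0.91 at 90 dpi, and the pan-leukocyte mean 1.02 to 1.37 and 0.48 to 0.94. *mrc1b*, the mannose receptor, read 8.53, 8.42 and 8.79 at 14 dpi and 7.10, 7.28 and 7.31 at 90 dpi, and fell by 1.34 ± 0.21 (limma, adjusted p = 0.00124). *csf1ra* encodes the receptor for the macrophage growth factor. It read 9.39, 9.23 and 9.45, then 8.46, 8.97 and 8.98, and fell by 0.55 ± 0.15 (adjusted p = 0.0253), a call lost without 14 dpi replicates 1 or 3 or 90 dpi replicate 1 (adjusted p of up to 0.0837). The other macrophage genes called were *slc7a7* and *spi1a*, which fell by 1.07 ± 0.28 and 0.72 ± 0.22 (adjusted p = 0.0225 and 0.0407) and lost their calls without 4 or more of the pools in turn (adjusted p of up to 0.0898 and 0.124). *csf1ra* was above uninjured ventricles at 90 dpi by 0.95 ± 0.15 (adjusted p = 7.3e-04). The perforin-like macrophage gene *mpeg1.1* differed by -0.47 ± 0.21 (adjusted p = 0.167) and was above uninjured ventricles at 90 dpi by 1.17 ± 0.21 (adjusted p = 0.00189). In the test against uninjured ventricles, 16 of the 24 macrophage genes were higher at 14 dpi and 10 at 90 dpi, where 12.7% and 13.5% of all genes were higher.

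Shares of the other blood lineage lists are read against 9.22% of all genes lower and 6.34% higher. Among 16 neutrophil genes 1 was lower (6.25%), *ncf1*, a subunit of the phagocyte oxidase. It read 8.20, 6.76 and 8.50, then 5.53, 6.76 and 6.09, so that the groups overlapped, and fell by 1.69 ± 0.46 (limma, adjusted p = 0.0258), lost without 14 dpi replicates 1 or 3 or 90 dpi replicates 1 or 3 (adjusted p of up to 0.102). The defining neutrophil genes *mpx* and *lyz* differed by -0.46 ± 0.48 and -0.55 ± 0.59 (adjusted p = 0.591 and 0.598). Of 10 lymphocyte genes 1 was lower (10%). It was *cd22*, a B cell surface lectin gene, which read 7.05, 6.21 and 7.10, then 5.28, 5.63 and 5.11, and fell by 1.45 ± 0.28 (adjusted p = 0.00533). Of 8 thrombocyte genes 2 were lower (25%), also with any 1 pool left out. They were the integrin gene *itgb3b*, by 1.2 ± 0.20, and *thbs1b*, by 1.27 ± 0.23 (adjusted p = 0.00202 and 0.00326), while *itga2b*, which defines thrombocytes, differed by -0.14 ± 0.23 (adjusted p = 0.738). Of 20 erythrocyte genes 1 was higher (5%), *rhag*, by 0.72 ± 0.19, and 1 lower (5%), *nt5c2l1*, by 0.82 ± 0.24 (adjusted p = 0.0256 and 0.0345). Each of these last 2 calls was lost without 3 or more of the pools in turn, at an adjusted p of up to 0.126 and 0.158. Of 11 complement genes none passed the test in this limma fit, with a median of -0.46. Against uninjured ventricles 8 were higher at 14 dpi and 4 at 90 dpi, where 12.7% and 13.5% of all genes were higher. The coagulation list had 2 of 13 genes lower (15.4%), *f13a1a.1* and *f13a1b*, with a median of -0.33. *f13a1b* fell by 0.67 ± 0.20 (adjusted p = 0.0402), and its call held only without 90 dpi replicate 2.

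The secretory pathway fell as a group. The list for stress of the endoplasmic reticulum (ER) and secretion holds the chaperones and translocation subunits that fold and export proteins such as collagen. Of its 49 genes 17 were lower and 0 higher (34.7% and 0%, against 9.22% and 6.34% of all genes), with a median of -0.36 and 44 negative differences. Without 14 dpi replicate 1, 11 were lower. *manf*, a secreted ER stress protein, read 10.09, 9.58 and 10.19 at 14 dpi and 8.32, 8.50 and 8.71 at 90 dpi, and fell by 1.44 ± 0.23 (limma, adjusted p = 0.0015). *hyou1*, an ER chaperone, read 8.34, 7.85 and 8.04, then 7.00, 6.72 and 7.12, and fell by 1.13 ± 0.17 (adjusted p = 0.00118). *pdia4*, which forms disulphide bonds, read 10.27, 9.70 and 9.94, then 9.11, 9.04 and 8.93. It fell by 0.94 ± 0.14 (adjusted p = 0.00107) and remained 0.58 ± 0.14 above uninjured ventricles (adjusted p = 0.00986). The translocon-associated *ssr4* and the signal peptidase gene *spcs3* fell by 0.56 ± 0.10 and 0.74 ± 0.14 (adjusted p = 0.00295 and 0.00345). The list mean, relative to uninjured ventricles, was 0.32 to 0.52 at 14 dpi and -0.04 to 0.05 at 90 dpi.

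Heat shock proteins and chaperones had 8 of 37 genes lower and 0 higher (21.6% and 0%, against 9.22% and 6.34% of all genes, median -0.28). Without 14 dpi replicate 1 or without 90 dpi replicate 2, 4 were lower. *hsp90b1* and *hspa5*, which the ER list also holds, fell by 0.86 ± 0.16 and 0.78 ± 0.16 (limma, adjusted p = 0.00361 and 0.00759). Chaperones of other compartments also fell. *hspa4b*, a nucleotide exchange factor, read 9.51, 9.56 and 9.53, then 9.18, 8.97 and 8.94, a fall of 0.50 ± 0.10 (adjusted p = 0.00582). *ahsa1b*, an activator of Hsp90, read 7.21, 7.33 and 7.10, then 6.79, 6.37 and 6.06, a fall of 0.81 ± 0.17 (adjusted p = 0.00897). At 90 dpi it was also below uninjured ventricles, by a difference of -0.77 ± 0.17 (adjusted p = 0.00651). Compared with uninjured ventricles, 5 of the 37 genes were lower at 14 dpi and 16 at 90 dpi, where 6.22% and 8.8% of all genes were lower.

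Genes of ribosome biogenesis fell. These genes make and assemble ribosomal subunits in the nucleolus. Of 61 tested, 25 were lower and 0 higher (41% and 0%, against 9.22% and 6.34% of all genes), with a median of -0.42, and 54 differences were negative. The count rested on single pools: it was 11 without 90 dpi replicate 2, 12 without 14 dpi replicate 1 or 90 dpi replicate 3, 13 without 14 dpi replicate 3, and 32 without 90 dpi replicate 1. *ddx18*, an RNA helicase, read 8.61, 8.52 and 8.79 at 14 dpi and 7.62, 7.75 and 7.72 at 90 dpi, against 8.13, 8.32 and 8.33 in uninjured ventricles. The 3 groups did not overlap. The fall was 0.95 ± 0.10 (limma, adjusted p = 1.0e-04), and the difference from uninjured ventricles was -0.56 ± 0.10 (adjusted p = 0.00195). *fbl* encodes fibrillarin, which methylates ribosomal RNA. It read 8.58, 8.42 and 8.41, then 7.79, 7.32 and 7.43, and fell by 0.96 ± 0.12 (adjusted p = 3.2e-04), to a level that differed from uninjured ventricles by -0.74 ± 0.12 (adjusted p = 8.3e-04). The falls of *gnl3*, *wdr12*, *wdr43* and *dkc1* were 0.95, 0.74, 0.65 and 0.94, with adjusted p between 0.00367 and 0.00425. Of the 7 group means of the series, that at 90 dpi was the lowest for all 6 of these genes. Over the list, 12 genes were lower and 0 higher at 90 dpi than in uninjured ventricles, where 8.8% of all genes were lower and 13.5% higher. The list mean was 0.03 to 0.32 in the 14 dpi pools and -0.30 to -0.02 in the 90 dpi pools, with 90 dpi replicate 1 the highest of its group.

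Of 36 genes of serine, folate, methionine and amino acid metabolism 6 were lower and 0 higher (16.7% and 0%, against 9.22% and 6.34% of all genes, median -0.29). Without 14 dpi replicate 1 or 90 dpi replicate 2, 2 were lower, and 3 without 14 dpi replicate 3 or 90 dpi replicate 1. *odc1*, the enzyme that starts polyamine synthesis, read 8.65, 8.05 and 8.89, then 7.92, 6.21 and 6.18. The 90 dpi replicate 1 was nearest to the 14 dpi pools, and the fall was 1.76 ± 0.37 (limma, adjusted p = 0.00749). The glutamine carrier gene *slc1a5* fell by 0.74 ± 0.18 (adjusted p = 0.0154), lost without 14 dpi replicate 1 or 90 dpi replicate 2 (adjusted p of up to 0.0799). The amino acid transporter subunit *slc3a2b* fell by 1.1 ± 0.27 (adjusted p = 0.0165), lost without 14 dpi replicate 1 (adjusted p = 0.0808).

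Of 57 genes of cytokines, chemokines and Jak/Stat signalling 10 were lower and 0 higher (17.5% and 0%, against 9.22% and 6.34% of all genes, median -0.22). Without 14 dpi replicate 1 or 90 dpi replicate 2, 2 were lower, and 3 without 14 dpi replicate 3. The receptor subunit gp130 passes the signal of interleukin 6 and interleukin 11 to Jak kinases and Stat3. *lifrb*, a receptor that pairs with gp130, read 6.95, 6.24 and 7.61 at 14 dpi and 5.50, 5.17 and 5.63 at 90 dpi, and fell by 1.50 ± 0.25 (limma, adjusted p = 0.00171). *stat3* read 9.93, 9.55 and 10.15, then 9.18, 9.24 and 9.45. *il6st*, the gp130 gene, read 10.51, 10.13 and 10.64, then 9.77, 9.79 and 10.08. *jak1* read 10.54, 10.18 and 10.66, then 9.94, 9.88 and 10.06. None of these 3 genes overlapped between groups, and in each 14 dpi replicate 2 was the lowest of its group. They fell by 0.59 ± 0.14, 0.55 ± 0.14 and 0.50 ± 0.13 (adjusted p = 0.0147, 0.0175 and 0.0179), and all 3 calls were lost without 14 dpi replicate 1, 14 dpi replicate 3 or 90 dpi replicate 2 (adjusted p of up to 0.0615, 0.0736 and 0.0751). *stat3* and *il6st* were still above uninjured ventricles by 0.48 ± 0.14 and 0.41 ± 0.14 (adjusted p = 0.023 and 0.043). The kinase genes *jak2a* and *jak2b* differed by -0.07 ± 0.19 and 0.05 ± 0.10 (adjusted p = 0.85 and 0.807).

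The list of 32 genes of cardiac stress, embryonic program and transcription factors moved both ways, with 5 lower (15.6%, against 9.22% of all genes) and 7 higher. *nppb* encodes the B-type natriuretic peptide. It read 12.78, 12.67 and 13.03 at 14 dpi and 12.095, 11.48 and 11.95 at 90 dpi, without overlap, and fell by 0.98 ± 0.16 (limma, adjusted p = 0.00154). At 90 dpi it differed from uninjured ventricles by 0.15 ± 0.16 (adjusted p = 0.534). *ankrd1a*, a stretch-sensitive muscle protein gene, read 6.31, 6.77 and 6.73, then 5.31, 4.18 and 4.42, a fall of at least 1.97 ± 0.26 (adjusted p = 6.4e-04), since its 90 dpi mean is below the array median. *ccn2a*, connective tissue growth factor, read 8.20, 9.05 and 8.85, then 7.80, 7.24 and 7.64, and fell by 1.14 ± 0.24 (adjusted p = 0.00737). *ccn2b* and *csrp1a*, a LIM protein gene, fell by 0.68 ± 0.20 and 0.37 ± 0.11 (adjusted p = 0.0399 and 0.0369). *csrp1a* lost its call without any 1 pool, and *ccn2b* without any but 14 dpi replicate 3.

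The 7 genes of the same list that rose were 21.9% of it, against 6.34% of all genes. All were transcription or signalling genes rather than peptides. The count was 2 without 14 dpi replicate 1 and 4 without 90 dpi replicate 2, and without either of these or 14 dpi replicate 2 the count of lower genes was 3 in place of 5. *tbx5b*, a T-box factor of heart development, read 11.04, 11.097 and 11.24 at 14 dpi and 11.78, 11.84 and 11.71 at 90 dpi. No pools overlapped, and the rise was 0.65 ± 0.15 (limma, adjusted p = 0.0112). The uninjured pools read 11.65, 11.58 and 11.54, and 90 dpi differed from them by 0.19 ± 0.15 (adjusted p = 0.395). *foxo3a*, a factor of growth arrest and stress resistance, read 8.69, 9.37 and 9.21, then 9.95, 10.13 and 9.91, a rise of 0.91 ± 0.18 (adjusted p = 0.00641). *tbx20* and *hopx* rose by 0.43 ± 0.10 and 0.77 ± 0.18 (adjusted p = 0.0154 and 0.0124) and lost their calls without 14 dpi replicate 1 (adjusted p = 0.0699 and 0.0664). *gata4* rose by 0.31 ± 0.09 (adjusted p = 0.0405), *tbx5a* by 0.66 ± 0.18 (adjusted p = 0.0256) and *dyrk2*, a kinase gene, by 0.78 ± 0.20 (adjusted p = 0.021). These 3 calls were lost without 14 dpi replicate 1 or 90 dpi replicate 2, among others, at an adjusted p of up to 0.132, 0.12 and 0.0961. *nkx2.5* and *mef2ca* differed by 0.26 ± 0.12 and 0.12 ± 0.14 (adjusted p = 0.168 and 0.619).

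Of 42 glycolysis and lactate genes 7 were lower and 2 higher (16.7% and 4.76%, against 9.22% and 6.34% of all genes), with a median of -0.05. Leaving out 14 dpi replicate 1 left 4 lower. *pgam1a*, a glycolytic mutase, read 10.43, 10.10 and 10.15 at 14 dpi and 8.72, 8.99 and 9.38 at 90 dpi, and fell by 1.2 ± 0.19 (limma, adjusted p = 0.00144). At 90 dpi it was below uninjured ventricles by a difference of -0.59 ± 0.19 (adjusted p = 0.038). *pfkfb3*, which drives glycolytic flux, and *hk2*, hexokinase, fell by 1.54 ± 0.32 and 1.3 ± 0.28 (adjusted p = 0.00749 and 0.00926). From the list of iron, haem and oxidative stress genes, the prolyl hydroxylase gene *egln1b*, an oxygen sensor that low oxygen induces, read 7.99, 7.24 and 7.21, then 6.35, 6.20 and 6.01, a fall of 1.29 ± 0.22 (adjusted p = 0.00211). *egln3*, of the same family, read 10.43, 9.23 and 8.95, then 7.64, 7.09 and 7.61, and fell by 2.09 ± 0.46 (adjusted p = 0.00964), with 14 dpi replicate 1 the highest and an adjusted p of 0.0549 without it. Of the 7 group means, that at 14 dpi was the highest for *egln1b*, *egln3* and *pgam1a*. In *slc2a3b*, *pfkfb3*, *egln1b*, *egln3* and *pgam1a*, 14 dpi replicate 1 was the highest of its group. In *hk2* the highest was 14 dpi replicate 3, at 7.21 against 6.72 in replicate 1. Of the genes that rose, *pfkfb2b* changed by 0.68 ± 0.20 and *slc2a12*, a glucose transporter gene, by 0.49 ± 0.13 (adjusted p = 0.0347 and 0.0217), calls lost without 4 or more of the pools in turn (adjusted p of up to 0.118 and 0.0807).

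Cell movement genes fell as well. Of 66 genes of actin remodelling and migration 17 were lower and 1 higher (25.8% and 1.52%, against 9.22% and 6.34% of all genes, median -0.33). Without 90 dpi replicate 2, 10 were lower. The list mean was 0.33 to 0.38 at 14 dpi and 0.03 to 0.06 at 90 dpi, relative to uninjured ventricles. *anxa2a*, annexin A2, read 11.13, 10.86 and 11.27, then 10.36, 10.19 and 10.34, a fall of 0.79 ± 0.12 (limma, adjusted p = 0.00107). *itga5*, the fibronectin receptor subunit, fell by 0.94 ± 0.16 (adjusted p = 0.00272), to a level below uninjured ventricles by a difference of -0.92 ± 0.16 (adjusted p = 0.00161). *zyx* and *arpc5a*, which organise actin filaments, fell by 0.89 ± 0.15 and 0.81 ± 0.16 (adjusted p = 0.00186 and 0.00471). *actr3b* rose by 0.78 ± 0.23 (adjusted p = 0.0398), a call lost without any 1 pool but 14 dpi replicate 2.

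**Figure D4:**
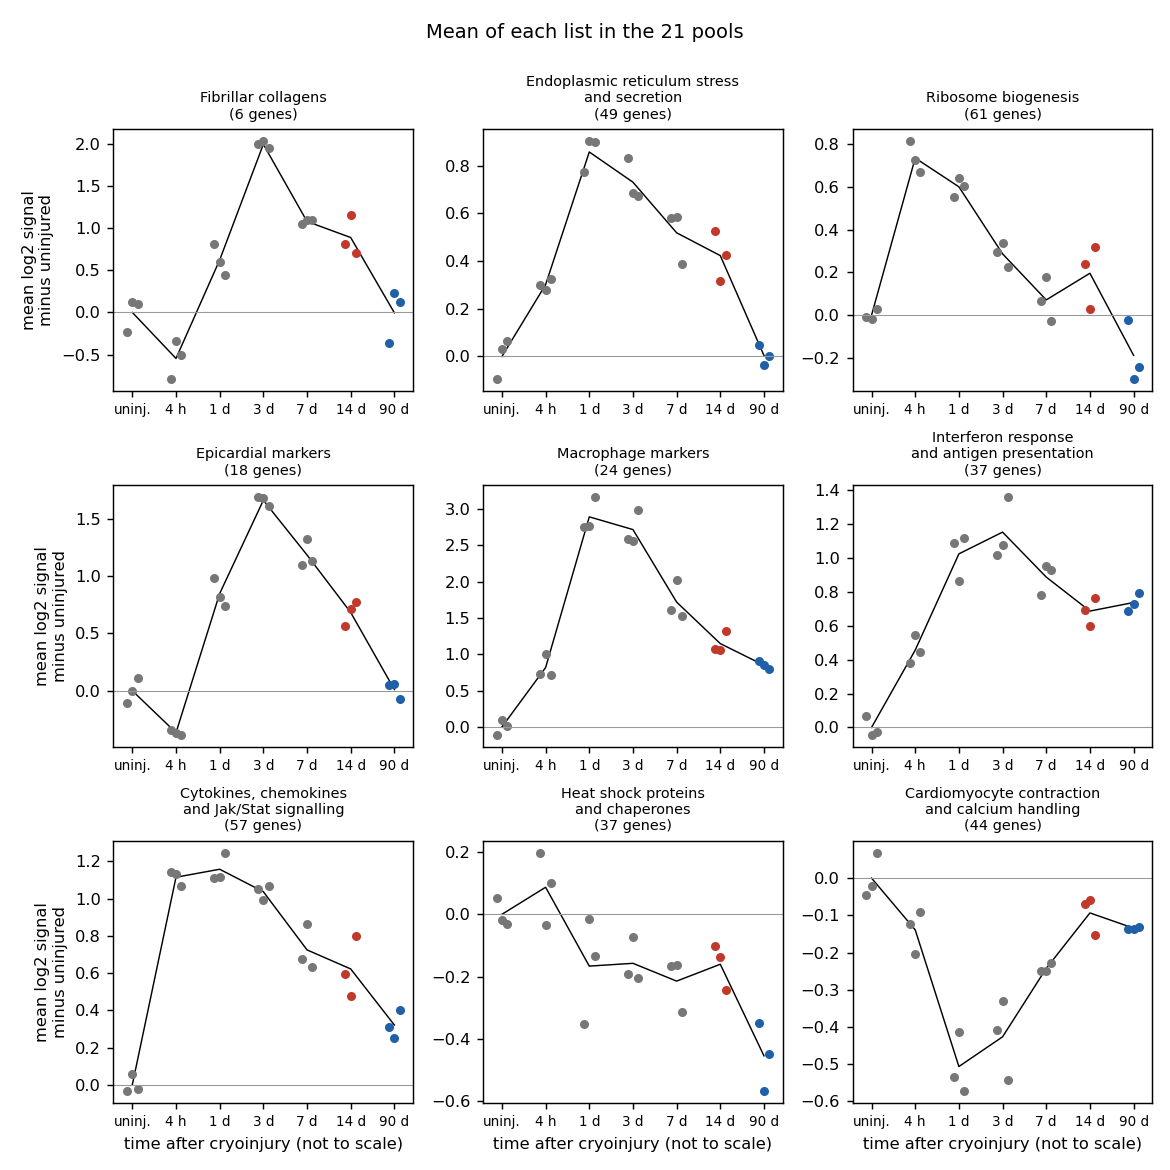
Mean log2 signal of 9 lists in each of the 21 pools, relative to the mean of the uninjured pools (y axis), by time after injury (x axis, not to scale). Red points are the 14 dpi pools, blue points the 90 dpi pools and the line joins group means. Fibrillar collagens lie at 0.71 to 1.15 at 14 dpi and -0.36 to 0.23 at 90 dpi, while the interferon list lies at 0.60 to 0.77 and 0.69 to 0.80.

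The largest rises were smaller than the largest falls, and several ended near the level of uninjured ventricles. *kcnj12a* encodes an inward rectifier potassium channel of the heart. It read 6.27, 6.81 and 7.10 at 14 dpi and 8.02, 8.28 and 8.32 at 90 dpi, against 8.52, 8.67 and 8.41 in uninjured ventricles. All 90 dpi pools lay above all 14 dpi pools, and the rise was 1.48 ± 0.26 (limma, adjusted p = 0.00235). *arid3a*, a transcription factor gene, read 5.16, 5.65 and 5.64, then 6.82, 6.96 and 6.73. It rose by 1.35 ± 0.17 (adjusted p = 3.2e-04), from a level 1.85 below that of uninjured ventricles on the log2 scale to a difference of -0.50 ± 0.17 (adjusted p = 0.0445). *cacng6b*, a calcium channel subunit gene, read 7.03, 6.00 and 6.19, then 7.44, 8.56 and 8.33, and rose by 1.70 ± 0.39 (adjusted p = 0.0117), the largest rise of a named gene. It lost its call without 90 dpi replicate 2 (adjusted p = 0.0613). The dopamine receptor gene *drd1b* rose by 1.66 ± 0.35 (adjusted p = 0.00799) from a level below the array median.

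*prdm2a*, a zinc finger gene, had 2 tested features that rose by 1.56 ± 0.20 and 1.54 ± 0.24 (limma, adjusted p = 4.6e-04 and 0.00129). The first read 5.59, 5.81 and 6.43 at 14 dpi, 7.36, 7.79 and 7.36 at 90 dpi and 6.41, 6.34 and 6.24 in uninjured ventricles, a difference of 1.17 ± 0.20 between 90 dpi and uninjured ventricles (adjusted p = 0.00125). *klhl24b*, an adaptor of a ubiquitin ligase, read 6.81, 7.11 and 7.95, then 8.37, 9.11 and 8.66. It rose by 1.43 ± 0.31 (adjusted p = 0.00875) and lay 2.08 ± 0.31 above uninjured ventricles (adjusted p = 5.2e-04). *harbi2* and *slc14a2*, a urea transporter gene, rose by 1.55 ± 0.25 and 1.46 ± 0.31 (adjusted p = 0.00172 and 0.00879), and *zgc:165555* by 1.38 ± 0.24 (adjusted p = 0.00286). *tmem86a*, *fbxo25*, *igldcp*, *ky* and *spink2.4* rose by 1.37 to 1.46, and lost their calls without 2 or more of the pools in turn, at an adjusted p of up to 0.0848, 0.0801, 0.11, 0.156 and 0.225. Among these genes *zgc:165555*, *fbxo25* and *ky* did not pass the test at 90 dpi against uninjured ventricles (limma, adjusted p = 0.0751, 0.0938 and 0.112). *leap2*, an antimicrobial peptide gene and 1 of 3 tested liver and plasma genes, read 4.50, 4.77 and 4.58, then 7.42, 5.84 and 5.15, against 7.4, 7.81 and 8.30 in uninjured ventricles, and so lay below them at 90 dpi by a difference of -1.70 ± 0.42 (adjusted p = 0.0108). It rose from 14 to 90 dpi by 1.52 ± 0.42 (adjusted p = 0.0285) and was lost without any 1 pool but 90 dpi replicate 3, at an adjusted p of up to 0.09.

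**Figure D5:**
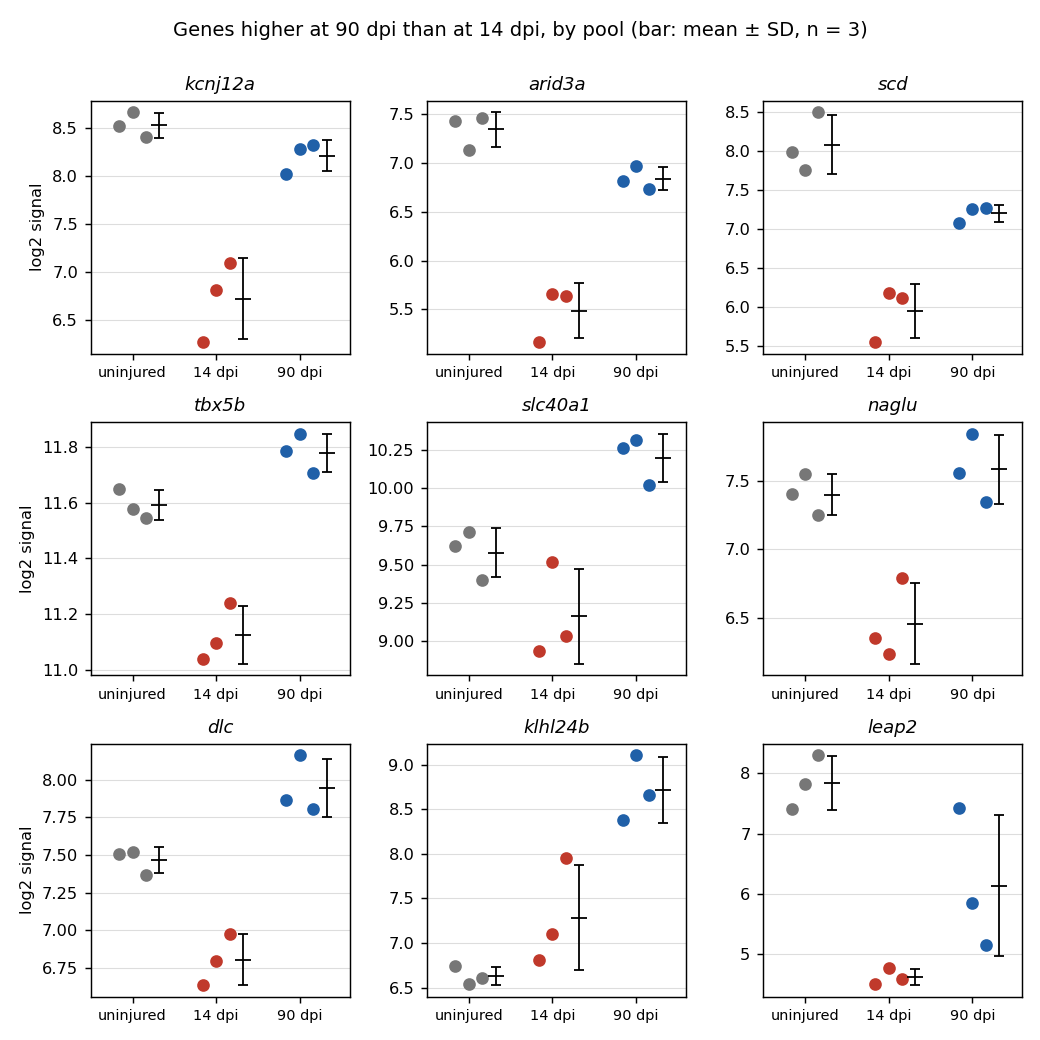
Log2 signal (y axis) of 9 genes in each pool of uninjured, 14 dpi and 90 dpi ventricles, with the mean ± SD (n = 3) at the right of each group. All 90 dpi pools lie above all 14 dpi pools in the 9 genes, and the 90 dpi pools of *leap2* spread from 5.15 to 7.42. Several of these genes were named by a rule that required no overlap, so their separation follows from the choice.

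The triglyceride and sterol list had 2 of 35 genes higher and 4 lower (5.71% and 11.4%, near the 6.34% and 9.22% of all genes, median -0.03), with 1 lower without 14 dpi replicate 1 or 90 dpi replicate 2, 2 lower without 14 dpi replicates 2 or 3, and 1 higher without 14 dpi replicate 3. *scd*, which desaturates fatty acids, read 5.54, 6.18 and 6.11 at 14 dpi and 7.07, 7.26 and 7.26 at 90 dpi, a rise of 1.25 ± 0.27 (limma, adjusted p = 0.00876). It remained below uninjured ventricles by a difference of -0.88 ± 0.27 (adjusted p = 0.0302). *dgat2*, the last enzyme of triglyceride synthesis, read 8.04, 7.92 and 7.59, then 9.23, 8.72 and 9.22, and rose by 1.2 ± 0.30 (adjusted p = 0.0169), a call lost without 14 dpi replicate 3 or 90 dpi replicate 3 (adjusted p of up to 0.0584). *hmgcrb*, the rate-limiting enzyme of sterol synthesis, fell by 0.78 ± 0.14 (adjusted p = 0.00296). *angptl4*, an inhibitor of lipoprotein lipase, read 10.20, 8.66 and 8.02, then 5.99, 7.62 and 7.96, and fell by 1.77 ± 0.51 (adjusted p = 0.0348), lost without 14 dpi replicates 1 or 2 or 90 dpi replicates 1 or 2 (adjusted p of up to 0.175). *cebpa* and *idi1* fell by 0.69 ± 0.19 and 0.44 ± 0.13 (adjusted p = 0.0258 and 0.0416), lost without 3 or more of the pools in turn (adjusted p of up to 0.131 and 0.171).

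Of 42 iron, haem and oxidative stress genes 3 were higher and 4 lower (7.14% and 9.52%, near the shares over all genes), with a median of -0.20. The iron exporter gene *slc40a1* read 8.94, 9.52 and 9.04, then 10.26, 10.31 and 10.02. It rose by 1.03 ± 0.19 (limma, adjusted p = 0.00335), to 0.62 ± 0.19 above uninjured ventricles (adjusted p = 0.0296). *gclm*, for glutathione synthesis, fell by 0.70 ± 0.15 (adjusted p = 0.00855). Its partner subunit gene *gclc* fell by 0.56 ± 0.14 (adjusted p = 0.0167), lost without 14 dpi replicate 1 (adjusted p = 0.0773). Catalase gene *cat* and *blvra*, which reduces biliverdin, rose by 0.49 ± 0.13 and 0.45 ± 0.13 (adjusted p = 0.0207 and 0.0299), lost without 3 or more of the pools in turn (adjusted p of up to 0.0868 and 0.0959). The other falls of the list were of *egln1b* and *egln3*, given above. Of 40 lysosome genes 5 were higher and 4 lower (12.5% and 10%, against 6.34% and 9.22% of all genes, median -0.09). In this list 2 or 3 were higher without any 1 of the 14 dpi pools or 90 dpi replicate 2. Without 14 dpi replicates 1 or 3 or 90 dpi replicates 2 or 3, 1 or 2 were lower. *naglu*, an enzyme that degrades heparan sulphate, read 6.36, 6.24 and 6.79, then 7.56, 7.84 and 7.34, a rise of 1.12 ± 0.17 (adjusted p = 0.00108). The membrane protein gene *lamp1b* rose by 0.56 ± 0.13 (adjusted p = 0.0115), and *scarb2a*, which carries an enzyme to the lysosome, fell by 0.77 ± 0.16 (adjusted p = 0.00842). The other calls were the rises of *gusb*, *mcoln1a* and *ids*, by 0.50, 0.60 and 0.63, and the falls of *ctsd*, *ctsh* and *cd63*, by 0.47, 0.62 and 0.31, and each was lost without 3 or more of the pools in turn, at an adjusted p of up to 0.158.

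Interferon and antigen presentation genes stayed high. Of 37 genes 21 were higher than in uninjured ventricles at 14 dpi and 25 at 90 dpi, where 12.7% and 13.5% of all genes were higher. Between the 2 times 4 were higher and 2 lower (10.8% and 5.41%, against 6.34% and 9.22% of all genes), with a median of 0.03. Without any 1 pool the count of higher genes was 0 to 2, with 0 without 14 dpi replicate 1 or 90 dpi replicate 3. *gbp1*, a GTPase gene induced by interferon, read 7.46, 6.77 and 7.19 at 14 dpi and 5.92, 5.66 and 6.02 at 90 dpi, a fall of 1.28 ± 0.19 (limma, adjusted p = 9.1e-04). The antiviral gene *mxe* read 5.69, 6.02 and 5.57, then 7.16, 6.24 and 6.82, and rose by 0.98 ± 0.24 (adjusted p = 0.018), lost without 14 dpi replicates 1 or 3 or 90 dpi replicates 1 or 3 (adjusted p of up to 0.0658). It lay 1.48 ± 0.24 above uninjured ventricles at 90 dpi (adjusted p = 9.9e-04). *ciita*, the regulator of class II antigen presentation, rose by 1.03 ± 0.28 (adjusted p = 0.0278), lost without 14 dpi replicates 1 or 2 or 90 dpi replicates 2 or 3 (adjusted p of up to 0.125). *rsad2* and *irf3* rose by 1.06 ± 0.29 and 0.51 ± 0.15 (adjusted p = 0.0253 and 0.0354), lost without 4 or more of the pools in turn (adjusted p of up to 0.116 and 0.107), and *tapbpl* fell by 0.78 ± 0.20 (adjusted p = 0.019), lost without 14 dpi replicate 1 (adjusted p = 0.0987).

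Of 82 growth factor and Notch genes 8 were higher and 8 lower (9.76% each way, against 6.34% and 9.22% of all genes), with a median of -0.03, and without 14 dpi replicate 1 there was 1 in each direction, without 90 dpi replicate 2 there were 2 and 4, without 14 dpi replicate 2 there were 3 and 5, and without 14 dpi replicate 3 there were 6 and 5. The Notch ligand gene *dlc* read 6.64, 6.80 and 6.98 at 14 dpi and 7.87, 8.16 and 7.80 at 90 dpi, a rise of 1.14 ± 0.19 (limma, adjusted p = 0.00211). Its receptor gene *notch1a* and the growth factor gene *pdgfbb* rose by 0.48 ± 0.13 and 0.60 ± 0.14 (adjusted p = 0.0236 and 0.0142), and both were lost without 14 dpi replicate 1, *notch1a* also without 14 dpi replicate 3 or 90 dpi replicate 2 (adjusted p of up to 0.103 and 0.0764). Other tested features of *notch1a* rose by 0.65, 0.44 and 0.38 (limma, adjusted p = 0.00288, 0.207 and 0.0899). *tgfbr2a*, a receptor for Tgf-beta, read 8.35, 8.19 and 8.98, then 6.85, 7.82 and 7.91, and fell by 0.98 ± 0.26 (adjusted p = 0.022), lost without 14 dpi replicates 1 or 3 or 90 dpi replicate 1 (adjusted p of up to 0.0923). Of 65 apoptosis and p53 genes 5 were higher and 6 lower (7.69% and 9.23%, near the shares over all genes, median -0.03), with 2 and 2 without 90 dpi replicate 2, 2 and 3 without 14 dpi replicate 1, and 3 and 5 without 14 dpi replicate 3. *baxa*, which opens the mitochondrial membrane, read 7.76, 7.83 and 7.81, then 7.16, 7.17 and 7.01, a fall of 0.69 ± 0.10 (adjusted p = 8.8e-04). The genes *bcl2a*, *bcl2l1*, *bcl2l10*, *mcl1b* and *xiap* fell too. Their group means went from 9.17, 8.25, 10.09, 10.45 and 8.97 to 8.29, 7.77, 9.41, 9.96 and 8.12. Each call was lost without 1 or more of the pools in turn (limma, adjusted p of up to 0.0723, 0.052, 0.145, 0.143 and 0.0566). *diabloa*, released from mitochondria in apoptosis, rose by 0.78 ± 0.14 (adjusted p = 0.00326). *ccnd2a*, *bbc3* and *cdk6* rose by 0.63, 1.15 and 0.81 (adjusted p = 0.0167, 0.0329 and 0.0361), lost without 3 or more of the pools in turn (adjusted p of up to 0.0768, 0.163 and 0.164).

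Few genes of the contractile machinery passed the test, with a share of lower genes not far from that over all genes. Of 44 genes of contraction and calcium handling 3 were lower and 0 higher (6.82% and 0%, against 9.22% and 6.34% of all genes). Their median was 0.00, and 0 were lower without 14 dpi replicate 1 or 90 dpi replicate 2. The list mean was -0.15 to -0.06 at 14 dpi and -0.14 to -0.13 at 90 dpi, relative to uninjured ventricles. The 3 genes were *atp2a2b*, a calcium pump, *tcap*, a Z-disc protein, and the potassium channel gene *kcnh6a*, which fell by 0.83 ± 0.19, 1.12 ± 0.30 and 0.80 ± 0.23 (limma, adjusted p = 0.0107, 0.0251 and 0.0337). Each call was lost without 2 or more of the pools in turn (adjusted p of up to 0.0602, 0.129 and 0.143). The defining genes *myl7*, *cmlc1* and *tnnt2a* differed by 0.07 ± 0.09, 0.13 ± 0.09 and 0.04 ± 0.08 (adjusted p = 0.677, 0.388 and 0.81). Against uninjured ventricles 6 of the 44 genes were lower and 3 higher at 14 dpi, and 8 lower and 1 higher at 90 dpi. Over all genes 6.22% were lower and 12.7% higher at 14 dpi, and 8.8% and 13.5% at 90 dpi.

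Genes of energy supply gave few calls, against 9.22% of all genes lower and 6.34% higher. Of 68 respiratory chain and ATP synthase genes 2 were lower and 1 higher (median -0.04), of 33 genes of the citric acid cycle and mitochondrial regulation 0 (0.04), and of 36 fatty acid oxidation genes 1 was lower, *eci1*, and 1 higher, *pex11a* (0.05). *eci1* fell by 0.34 ± 0.09 and *pex11a* rose by 0.77 ± 0.22 (limma, adjusted p = 0.0296 and 0.0311), lost without 4 or more of the pools in turn (adjusted p of up to 0.0814 and 0.154). The cytochrome oxidase genes *cox5aa* and *cox6a1* fell by 0.39 ± 0.10 and 0.40 ± 0.10, and *cox4i2* rose by 0.64 ± 0.17 (limma, adjusted p = 0.019, 0.0205 and 0.0259), calls lost without 3 of the pools in turn (adjusted p of up to 0.0611, 0.0744 and 0.128). Compared with uninjured ventricles, 14 of the 68 respiratory chain genes were lower at 90 dpi and 7 at 14 dpi, where 8.8% and 6.22% of all genes were lower.

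Endothelial and cell cycle genes also gave few calls. Of 38 endothelial and endocardial genes 2 rose and 2 fell (5.26% each way, against 6.34% and 9.22% of all genes), with a median of 0.04. *cldn5a*, a tight junction gene, fell by at least 1.25 ± 0.21 and *s1pr1*, a lipid receptor gene of vessels, by 1.18 ± 0.22 (limma, adjusted p = 0.00201 and 0.00401). *ephb4a* and *fli1rs* rose by 0.47 ± 0.11 and 0.72 ± 0.19 (adjusted p = 0.0144 and 0.0217), and both were lost without 14 dpi replicate 1 or 90 dpi replicate 2, *fli1rs* also without 90 dpi replicate 1 (adjusted p of up to 0.0658 and 0.0927). The endothelial markers *kdrl* and *cdh5* differed by 0.05 ± 0.12 and 0.04 ± 0.11 (adjusted p = 0.833 and 0.85). Of 9 lymphatic genes none passed the test, with a median of -0.03. Of 31 DNA replication genes and 31 mitosis genes none passed the test between the 2 times, with medians of 0.01 and -0.18, and 26 of the mitosis differences were negative. Only 15 of the replication genes and 6 of the mitosis genes passed the signal filter over the 6 arrays compared. The others were tested through signals at other times, so a change in them between 14 and 90 dpi is hard to see. Compared with uninjured ventricles, 9 mitosis genes were higher at 14 dpi, and 2 were higher and 1 lower at 90 dpi. These counts carry the same limit, since most of the mitosis genes had no log2 signal over 6 at 14 or 90 dpi. Over all genes 12.7% were higher at 14 dpi, and 13.5% were higher and 8.8% lower at 90 dpi.

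Of 31 genes that the study itself names, 14 were lower and 3 higher, with a median of -0.37. These are 45.2% and 9.68%, against 9.22% and 6.34% of all genes. Many of them had been picked on these same samples and others were cited from earlier work, so their count is no independent evidence of a direction. Besides those given above, the protease gene *adam8b* fell by 1.27 ± 0.29 and the membrane fusion gene *stx11a* by 0.71 ± 0.15 (limma, adjusted p = 0.0113 and 0.00916), and the closely related *adam8a* differed by -1.12 ± 0.36 (adjusted p = 0.0513). The count of lower genes was 6 without 90 dpi replicate 2 and 7 without 14 dpi replicates 1 or 3, and that of higher genes was 0 without 14 dpi replicate 1 or 90 dpi replicate 2 and 1 without 14 dpi replicates 2 or 3.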

How the data were processed

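RNA from 21 pools of 5 ventricles was hybridised to whole-transcript arrays. The deposited values are log2 signals, which per the methods the authors had summarised by robust multi-array averaging (RMA) in Partek software with a correction for GC content of the probes. They were used as deposited, and 0 columns of values were left out.

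Features were kept at a log2 signal above 6 in at least 1 array. A single limma model (limma 3.58.1, R 4.3.3) was fitted to the 7 groups with 3 pools each, which left 14 residual degrees of freedom, and the contrast of 90 dpi with 14 dpi was tested with Benjamini-Hochberg adjustment over all features tested, at 0.05. Tables and plots were made with Python 3.11.15, pandas 2.3.3 and matplotlib 3.10.9. Among 35 genes with more than 1 called feature, the features of 1 gene, not named here, differed in direction, and the feature with the highest mean stands for a gene. The number of arrays limits the precision, and an exact permutation test of 3 against 3 pools cannot go below p = 0.1. The methods give 5 ventricles per biological replicate and the study describes 3 independent experiments, but no source ties a replicate number to an experiment. Tested on simulated data with 100 features changed by each size among 35783, this comparison recovered 65% of changes of log2 1 and 92% of changes of log2 2, with 20 wrong calls.

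The members of the comparison and all 44 gene lists were chosen with earlier results of these data known. Named genes were the 15 largest called changes each way without overlap of the pools and with the higher group mean above 6, up to 6 called members of each list each way by adjusted p, genes the study names, defining markers, and up to 2 features each way without a symbol. *il11a* and *aldh1a2* were chosen after their values were seen. Alternatives were another filter or none, quantile normalization, median centring, a fit of 6 arrays, a replicate block, a trended robust prior, and leaving out each pool. No promoter motif search was run.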

Additional observations from a re-analysis of the deposited data

How the results depend on the processing

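The counts of features higher, lower and over 1.6-fold kept within 1.5 times their values without the filter, with the filter over the 6 arrays, with quantile normalization, with median centring and with a trended robust prior, and no call changed direction in any alternative. The fit of only the 6 arrays gave 0 higher, 11 lower and 11 over 1.6-fold. Leaving out 1 pool gave 414 to 1711 higher, 1067 to 3065 lower and 1057 to 3105 over 1.6-fold, with the fewest without 90 dpi replicate 2. Pools of the same number correlated at 0.07 in their deviations, below the limit of 0.1 set for pairing, and pools of different numbers at -0.05 to -0.02. Each pool thus correlated best with its own number. These values cannot settle whether a number marks a shared experiment, and the main fit treated the pools as unpaired. With the replicate block 1466 features were higher, 2328 lower and 2117 over 1.6-fold, and 11 of 205 named calls were lost. The block within only the 6 arrays, chosen after seeing the data, gave 0 higher, 0 lower and 0 over 1.6-fold, with 7697 features at an unadjusted p under 0.05 (limma). Of the named calls, 25 were lost without the filter, 10 with quantile normalization and 203 in the fit of the 6 arrays, which has 4 residual degrees of freedom. Levels below the array median limit the size of a change.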

Other observations

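Immediate early genes, which cells switch on within minutes of a stimulus, had 7 of 43 members lower and 1 higher at 90 dpi than at 14 dpi. These are 16.3% and 2.33%, against 9.22% and 6.34% of all genes, and the median was -0.24. Their level also varied between the uninjured pools, where the list mean spread from -0.52 to 0.30, against 0.06 to 0.30 at 14 dpi and -0.61 to 0.00 at 90 dpi. *atf3* read 8.61, 9.91 and 10.71 in uninjured ventricles, 9.68, 9.99 and 9.86 at 14 dpi and 8.28, 6.85 and 8.06 at 90 dpi, and *nr4a3* read 7.98, 10.00 and 10.83, then 10.41, 10.10 and 9.40, then 7.75, 6.97 and 7.78. In both genes uninjured replicate 1 lay far below the other uninjured pools, and no 14 dpi pool overlapped a 90 dpi pool. *nr4a2a*, of the same receptor family as *nr4a3*, went the other way and rose by 1.3 ± 0.31 (limma, adjusted p = 0.0143), lost without 14 dpi replicate 1 or 90 dpi replicate 2 (adjusted p of up to 0.0738). Without 90 dpi replicate 2, 0 of the 43 genes were called lower, 2 without 14 dpi replicate 1 and 3 without 14 dpi replicate 3. The part of handling at dissection in these values was not tested.

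Of 37 circadian clock genes 3 were higher and 1 lower at 90 dpi than at 14 dpi, with a median of -0.10. These are 8.11% and 2.7%, against 6.34% and 9.22% of all genes. With 1 pool left out, 1 to 4 were higher and 0 to 4 lower. In the tests against uninjured ventricles, 7 were higher and 15 lower at 14 dpi, and 8 were higher and 13 lower at 90 dpi. Over all genes 12.7% were higher and 6.22% lower than in uninjured ventricles at 14 dpi, and 13.5% and 8.8% at 90 dpi. *nr1d4b*, a repressor of the clock, read 4.82, 4.75 and 4.66 at 14 dpi and 6.10, 5.99 and 5.36 at 90 dpi, and rose by at least 1.07 ± 0.20 (limma, adjusted p = 0.00444). *bhlhe41* read 10.41, 9.63 and 8.91, then 7.62, 7.53 and 8.13, and fell by 1.89 ± 0.45 (adjusted p = 0.0153), lost without 14 dpi replicate 1 or 90 dpi replicate 2 (adjusted p of up to 0.0794). *clockb* and *rorab* rose by 0.54 ± 0.12 and 0.43 ± 0.13 (adjusted p = 0.0116 and 0.0468), the former lost without 90 dpi replicate 2 (adjusted p = 0.0545) and the latter without any 1 pool (adjusted p of up to 0.151). The hour of dissection is not given in the labels, and its part was not tested.

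Of the features without a gene symbol, 13305276 read 10.74, 10.58 and 9.87 at 14 dpi and 7.84, 5.58 and 6.52 at 90 dpi, a fall of 3.75 ± 0.51, and 13278468 read 7.63, 8.21 and 7.63, then 4.48, 4.45 and 4.49, a fall of at least 3.35 ± 0.23 (limma, adjusted p = 6.9e-04 and 8.7e-07). Feature 13146696 rose by at least 1.74 ± 0.26 and feature 13282184 by 2.23 ± 0.62 (adjusted p = 0.001 and 0.0292), the last with 14 dpi pools that ranged from 5.89 to 7.81. Lists of markers of neighbouring tissues were short, with 2 to 10 tested genes each. Of 9 skeletal muscle genes 0 passed (median -0.23), and of 2 nerve genes 0 (-0.28). Only 1 of the skeletal muscle genes passed the signal filter over the 6 arrays compared, so their median says little. Of 10 genes of atrium, valve and bulbus 1 was higher, *tbx5a*, and 2 lower, *mylka* and *elnb* (median -0.03). These are 10% and 20%, against 6.34% and 9.22% of all genes. *mylka* fell by 0.98 ± 0.19 and *elnb*, an elastin gene, by at least 1.70 ± 0.52 (adjusted p = 0.0054 and 0.0452), the latter lost without any 1 pool but 14 dpi replicate 1, at an adjusted p of up to 0.186. A second tested feature of *mylka* fell by 0.57 ± 0.21 (limma, adjusted p = 0.0881). The median of the 3 liver and plasma genes was -0.21, and 1 of them was higher, *leap2*, given above.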
